A study of Mus musculus with 8 samples.

Results

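The genes described here encode the tumor necrosis factor (TNF) receptor superfamily and the TNF receptor-associated factors (TRAFs). They were taken from the mm9 annotation as every protein-coding gene whose symbol starts with Tnfrsf or is Traf followed only by a number. This gave 27 of 22284 protein-coding genes, of which 20 were receptors and 7 were TRAFs. All were measured in D1 cells, a long-term line of splenic dendritic cells (DCs) from C57BL/6 mice, by chromatin immunoprecipitation and sequencing (ChIP-seq). Trimethylation of histone H3 at lysine 4 (H3K4me3) was mapped in non-treated cells (NT), in cells given 10 μg/ml curdlan for 2 h, and in cells given the same curdlan with FK506, whose dose the labels of these libraries do not state. NFATc2 was mapped in D1 cells that expressed a V5-tagged transgene, after 30 min with 10 μg/ml curdlan, so those sites belong to a tagged protein, and no NFATc2 list of non-treated cells was analysed here. Every condition was represented by 1 ChIP and 1 input. Without replicates the conditions were not tested against each other, and all ratios below are between single libraries.

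Receptors of this superfamily mostly bind trimeric ligands such as TNF, CD40 ligand or RANK ligand. They have no enzyme activity of their own. Many recruit TRAFs, several of which are ubiquitin ligases, and through them activate NF-κB and mitogen-activated protein kinases, while receptors with a death domain can also recruit caspase-8. In DCs they carry survival and maturation signals and respond to ligands on T cells. Curdlan is a β-glucan that binds dectin-1, which raises calcium and activates the phosphatase calcineurin. Calcineurin moves NFATc2 into the nucleus, and FK506 inhibits calcineurin. H3K4me3 marks the start sites of active and poised genes.

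NFATc2 peaks lay within 20 kb of a transcription start site (TSS) of 12 members. The sequences at 6 summits are shown because they lie near the 5 members whose H3K4me3 was higher with curdlan by 1.5-fold or more, or, for Tnfrsf1a, under one of the strongest NFATc2 peaks of the family. Each is the plus strand of mm9 within 100 bp of the summit, 201 bp in all, except that of Traf4, of which 30 bp from the summit are given. Capitals mark GGAAAA, the core bound by NFAT, and TGANTCA, the AP-1 motif, read on either strand. The positions were chr6:125300615-125300815 in an intron of Tnfrsf1a, chr4:144830731-144830931 in an intron of Tnfrsf1b, chr15:82049761-82049961 between genes downstream of the Tnfrsf13c TSS, chr2:34825865-34826065 between genes upstream of Traf1, chr11:77990627-77990656 in an exon of Tlcd1 upstream of Traf4, and chr2:101519342-101519542 in an intron of Traf6.
Tnfrsf1a: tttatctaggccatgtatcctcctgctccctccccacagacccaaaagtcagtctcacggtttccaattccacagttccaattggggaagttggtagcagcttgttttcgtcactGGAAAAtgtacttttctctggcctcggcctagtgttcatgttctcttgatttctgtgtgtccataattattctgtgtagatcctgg
Tnfrsf1b: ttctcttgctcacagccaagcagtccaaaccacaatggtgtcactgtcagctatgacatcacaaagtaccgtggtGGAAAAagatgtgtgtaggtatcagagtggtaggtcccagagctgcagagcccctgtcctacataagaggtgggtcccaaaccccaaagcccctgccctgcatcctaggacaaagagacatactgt
Tnfrsf13c: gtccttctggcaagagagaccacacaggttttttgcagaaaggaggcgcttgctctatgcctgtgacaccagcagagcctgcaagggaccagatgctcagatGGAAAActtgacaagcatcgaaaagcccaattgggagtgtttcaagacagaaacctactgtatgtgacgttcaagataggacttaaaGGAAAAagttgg
Traf1: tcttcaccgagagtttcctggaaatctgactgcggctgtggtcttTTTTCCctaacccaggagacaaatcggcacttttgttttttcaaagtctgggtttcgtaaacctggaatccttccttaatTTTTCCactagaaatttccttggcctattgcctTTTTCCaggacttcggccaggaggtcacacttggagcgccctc
Traf4: gagggagggaccgGGAAAAccccagttgga
Traf6: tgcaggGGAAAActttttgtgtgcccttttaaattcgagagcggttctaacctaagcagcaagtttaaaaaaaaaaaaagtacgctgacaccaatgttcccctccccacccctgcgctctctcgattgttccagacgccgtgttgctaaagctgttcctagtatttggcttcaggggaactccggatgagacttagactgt
In these windows GGAAAA occurred once at Tnfrsf1a, Tnfrsf1b, Traf4 and Traf6. It occurred 2 times at Tnfrsf13c and 3 times at Traf1, where all 3 copies lay on the minus strand. Traf1 and Traf6 each had a second summit within 20 kb that is not shown. That of Traf1 had the larger peak, with 79 tags against 37, and held neither motif. The second summit of Traf6 had 37 tags and held GGAAAA once.

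The H3K4me3 lists held 16662316 (NT), 21289349 (curdlan) and 19468498 (curdlan with FK506) ChIP tags, and the NFATc2 list held 14377535. Between 51.3% and 57.9% of the H3K4me3 tags lay in peaks, against 5.58% of the NFATc2 tags. Of 11 marker genes of DCs and myeloid cells found in the annotation, 10 carried an H3K4me3 peak in every list, among them Itgax and H2-Ab1, and Flt3 did not. Of 14 markers of other cell types 2 carried one, Lck and Cdh1, while Cd3e, Pax5, Ncr1 and Col1a1 had none.

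A gene was counted as marked when any base of an H3K4me3 peak lay within 1 kb of one of its TSSs. By this rule 17 of 27 members were marked in NT (63.0%, Wilson 95% interval 44.2 to 78.5), against 48.9% of all protein-coding genes. In each of the 2 stimulated lists 16 members were marked (59.3%, 40.7 to 75.5), against 48.8% and 48.7% of all genes. The intervals hold the shares of all genes. Wilson intervals here and below treat the members as independent draws, although they are a whole fixed set, and are not a test. The 16 members were marked in all 3 lists. They comprised 10 receptors and 6 TRAFs, so all TRAFs but Traf7 were counted as marked by this rule. The seventeenth member was Tnfrsf22, a decoy receptor for TRAIL. Its NT peak held 36 tags with a false discovery rate (FDR) of 6.4%, and no peak lay within 1 kb of its TSSs in the other lists.

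The unmarked members in every list were 9 receptors and Traf7. Among them were OX40 (Tnfrsf4), CD30 (Tnfrsf8) and BCMA (Tnfrsf17). The TRAIL death receptor Tnfrsf10b, the soluble RANK ligand decoy Tnfrsf11b (osteoprotegerin), Tnfrsf19, the death receptors Tnfrsf21 (DR6) and Tnfrsf25 (DR3), and Tnfrsf26 completed the group. Their nearest NT peak lay between 6.02 kb away, for Tnfrsf25, and 720 kb away, for Tnfrsf11b. For Tnfrsf4 it was the peak of the neighbouring GITR gene (Tnfrsf18), 11.4 kb from the nearest Tnfrsf4 TSS. For Traf7, whose protein has WD40 repeats in place of the usual TRAF domain, a peak of 103 RPM (tags per 1000000 ChIP tags of the library) lay 7.01 kb from the nearest annotated TSS. No TSS of any protein-coding gene lay within 1 kb of that peak, which was also present with curdlan at 92.5 RPM and with FK506 at 90.6 RPM.

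Marking varied with base composition. Members whose first TSS lay in a CpG-rich segment, with an observed over expected CpG ratio of 0.6 or more over 1 kb, were marked in NT in 9 of 11 cases (81.8%), and 79.9% of all such genes were. Members under that ratio were marked in 8 of 16 cases (50%), and 22.9% of all such genes were. Traf1, Tnfrsf1a, Tnfrsf13b, Tnfrsf13c, Tnfrsf14 and Tnfrsf18, with ratios from 0.187 to 0.406, were among the marked members with few CpGs at the first TSS. That ratio need not be that of the marked segment. The mark of Tnfrsf13b lay over TSSs 14.1 kb to 15.9 kb downstream of the first. The larger region of Traf1 lay over TSSs 2.87 kb to 3.64 kb after its first.

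The level of the mark was taken as the RPM in all peaks within 1 kb of a TSS. In NT the 17 marked members had a median level of 36.4 RPM, and all marked genes had 46.2. With curdlan these medians were 49.3 and 42.7, and with curdlan and FK506 41.6 and 41.3. Levels in NT ran from 2.16 for Tnfrsf22 to 105 for TACI (Tnfrsf13b). The lowest members after Tnfrsf22 were Tnfrsf23, Tnfrsf18 and Tnfrsf13c, at 8.88, 11.1 and 11.4 RPM.

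**Figure D1:**
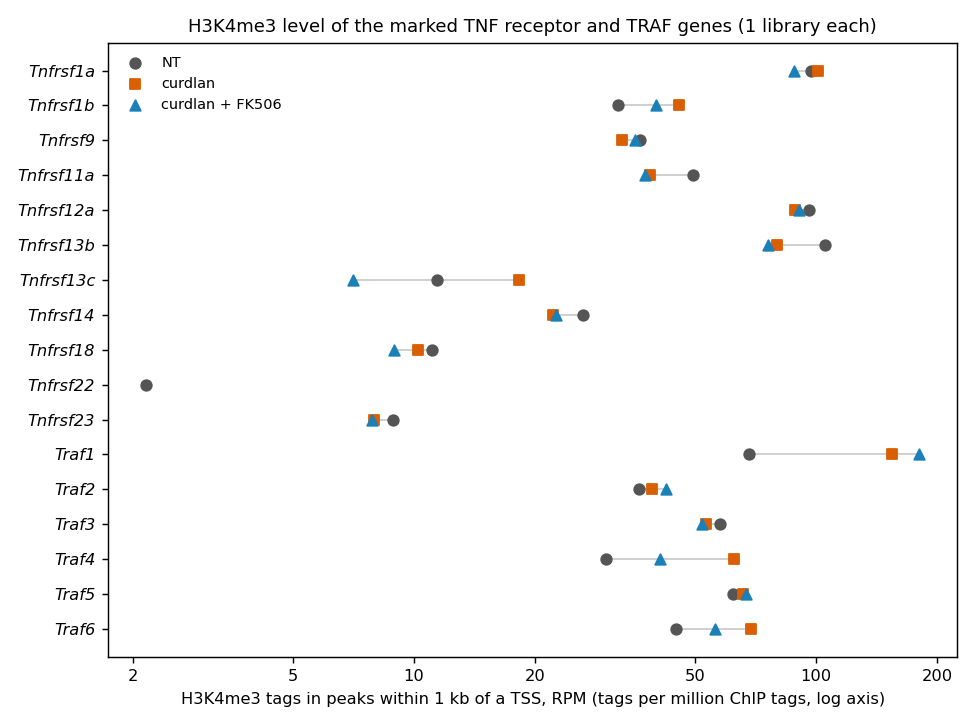
H3K4me3 level of each member marked in any list, as tags in peaks within 1 kb of a TSS in RPM on a log axis; each symbol is 1 library, and a grey line joins the libraries of a gene. Traf1, Traf4, Traf6, Tnfrsf1b and Tnfrsf13c lie further right with curdlan than in NT, and Traf1 lies furthest right with FK506 at 180. Tnfrsf13c lies lowest with FK506 at 7.04, and Tnfrsf22 has an NT value only.

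To compare conditions, log2 ratios of these levels were centred on the median of all genes marked in both lists. The value subtracted was −0.127 in the comparison of curdlan with NT and −0.0456 in that of FK506 plus curdlan with curdlan alone. Of the 16 members marked in both lists, 5 (31.2%, Wilson 95% interval 14.2 to 55.6) were higher with curdlan by 1.5-fold or more, and 3.65% of all genes were. No member was lower by that fold, and 1.22% of all genes were. Without centring 4 members were higher and none lower, and of all genes 2.58% were higher and 2.88% lower. By fold enrichment, which the peak caller computes at the summit against the input, 2 members were higher and 4 lower by 1.5-fold or more, and of all genes 14.4% were higher and 14.8% lower. Per kb of region 1 member was higher, and 1.46% of all genes were. Per kb the other 4 of the 5 members were within 1.5-fold. The 5 members were 3 TRAFs (Traf1, Traf4, Traf6) and 2 receptors (Tnfrsf1b, Tnfrsf13c). The median centred log2 ratio was 0.49 over the 6 marked TRAFs, all above 0, and −0.01 over the 10 marked receptors, of which 5 were above 0 and 5 below. Without centring Traf3 was below 0 (−0.12), and in fold enrichment the centred median of the TRAFs was 0.07. Intervals given with these ratios are exact 95% Clopper-Pearson intervals, which cover counting error only.

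Traf1 had the largest centred ratio of the members. The gene (ENSMUSG00000026875.7) lies on the minus strand of chr2:34797270-34817292. TRAF1 is an adaptor without the RING domain of the other TRAFs and binds TRAF2 and its partners. Its level was 68.0 RPM in NT, 154 with curdlan and 180 with FK506 added. The centred log2 ratio of curdlan over NT was 1.31 (interval 1.21 to 1.4), at percentile 99.3 of all genes. The level was thus lowest in NT, and adding FK506 to curdlan gave a centred log2 ratio of 0.27 (0.20 to 0.34).

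The mark at Traf1 lay in 2 regions on either side of its first TSS. The upstream region was 3851 bp long in NT with 369 tags, 4009 bp with curdlan with 643 tags, and 4011 bp with FK506 with 620 tags. In NT this region had an FDR of 17.36%. The downstream region, over TSSs from 2.87 kb to 3.64 kb after the first, was 3309 bp long in NT with 764 tags, 6593 bp with curdlan with 2634 tags, and 6838 bp with FK506 with 2886 tags. The downstream region had a centred log2 ratio of 1.56 (1.44 to 1.68) and the upstream region one of 0.57 (0.39 to 0.76). With curdlan the whole marked length of Traf1, 10602 bp, was at percentile 98.9 of all marked genes.

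The peak height at Traf1 gave another order. Fold enrichment was 41.9 in NT and 52.2 with curdlan for its strongest peak. The median gene had a log2 ratio of fold enrichment of 0.735, so the centred value of Traf1 was −0.42. The input of the curdlan library held 9309800 tags against 12085435 for NT, and the part of input depth in these ratios was not tested.

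Traf4 was 30.0 RPM in NT, 62.4 with curdlan and 40.9 with FK506 added. The gene (ENSMUSG00000017386.4) lies on the minus strand of chr11:77972001-77979091. TRAF4 is the most divergent TRAF of those with a TRAF domain and is known mainly from development and epithelial cells. Curdlan over NT gave a centred log2 ratio of 1.18 (1.03 to 1.33), and adding FK506 gave −0.56 (−0.69 to −0.43). The FK506 value lay between the other two, and its distance from curdlan was just under 1.5-fold after centring. A late TSS of Nek8, the gene upstream on the same strand, lies within 1 kb of this region but outside it, so the same tags also counted for Nek8. The end of the region inside Traf4 lay 1651 bp from the first TSS in NT, 3105 bp with curdlan and 2755 bp with FK506. Its summit lay upstream of that TSS in NT (position −244) but 707 bp downstream with curdlan and 605 bp downstream with FK506.

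Traf6 (ENSMUSG00000027164.8), on the plus strand of chr2:101518586-101541826, encodes the ubiquitin ligase that serves CD40 and RANK as well as Toll-like and interleukin-1 receptors. Its level was 44.7 RPM in NT, 68.9 with curdlan and 56.1 once FK506 was added. The centred log2 ratio was 0.75 (0.62 to 0.88) for curdlan over NT and −0.25 (−0.36 to −0.14) for FK506 over curdlan, a direction that turned by fold enrichment (0.13) and per kb (0.08). The region was 2747 bp long in NT, 3797 bp with curdlan and 2956 bp with FK506, so that its length with FK506 was nearer to that of NT.

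Of the receptors, Tnfrsf1b (ENSMUSG00000028599.4), on the minus strand of chr4:144803366-144836773, encodes TNFR2, which lacks a death domain and signals through TRAF2. It was 32.2 RPM in NT, 45.5 with curdlan and 39.9 with FK506 added. The centred log2 ratio of curdlan over NT was 0.63 (0.47 to 0.78), whose lower bound is under 1.5-fold. It was at percentile 96.8 of all genes. The region of Tnfrsf1b measured 2543 bp in NT, 4663 bp with curdlan and 3625 bp with FK506, and the added length lay downstream. Per kb of region the level was 12.6 RPM in NT and 9.76 with curdlan, a centred log2 ratio of −0.19, and with fold enrichment the ratio was −0.88. The higher value of Tnfrsf1b thus came with a longer region and not with a higher density.

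Tnfrsf13c (ENSMUSG00000068105.3), on the minus strand of chr15:82052174-82054790, encodes the BAFF receptor, a survival receptor best known from B cells. Its region had 190 NT tags, 388 curdlan tags and 137 tags when FK506 was added, or 11.4, 18.2 and 7.04 RPM. The level was highest with curdlan and lowest with FK506. The centred log2 ratio was 0.80 (0.55 to 1.06, a lower bound under 1.5-fold) for curdlan over NT and −1.33 (−1.62 to −1.04) for FK506 over curdlan, at percentile 0.167 of all genes. It was the 1 of 16 members lower with FK506 by 1.5-fold or more, and 1.14% of all genes were. Without centring Traf4 also passed (−0.61), and 1.38% of all genes did. By fold enrichment Tnfrsf13c, Tnfrsf18 and Traf4 passed, and 14.6% of all genes did. Per kb of region no member passed, and 0.436% of all genes did. None of the 16 was higher with FK506 by that fold, and 0.381% of all genes were. The region was 1929 bp long in NT, 3252 bp with curdlan and 1540 bp with FK506. Per kb the levels were 5.91, 5.6 and 4.57 RPM, so most of the difference lay in the length of the region. The B cell markers Cd79a and Pax5 carried no peak in any list.

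**Figure D2:**
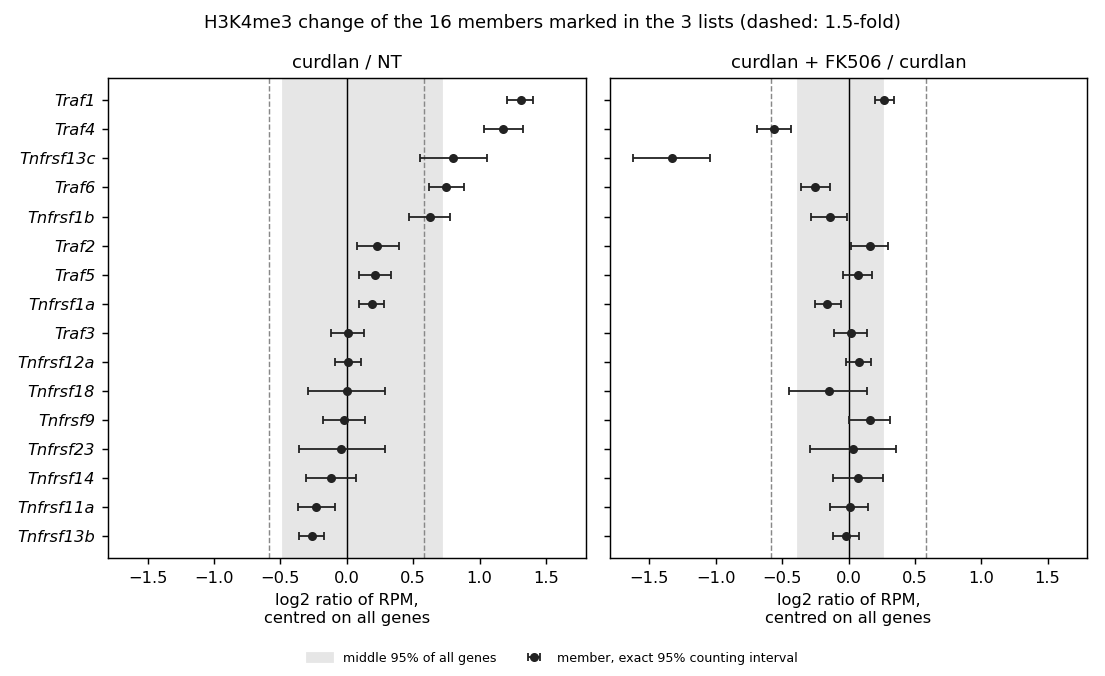
Centred log2 ratio of H3K4me3 RPM for the 16 members marked in the 3 lists, curdlan over NT on the left and curdlan with FK506 over curdlan on the right; points are 1 pair of libraries, bars are exact 95% counting intervals, the grey band holds the middle 95% of all genes and dashed lines mark 1.5-fold. In the left panel 5 members lie past the right dashed line, of which Tnfrsf1b at 0.63 lies inside the grey band, which ends at 0.72. In the right panel Tnfrsf13c alone lies past the left dashed line, with Traf4 just inside it at −0.56.

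The other 11 members marked in both lists had centred log2 ratios of curdlan over NT between −0.26 and 0.23. Traf2, an adaptor that brings the ubiquitin ligases Birc2 and Birc3 to TNF receptors, was 36.2, 39.0 and 42.2 RPM in NT, curdlan and curdlan with FK506. Traf5, which overlaps with Traf2 in function, was 62.2, 65.9 and 67.0. Traf3, which restrains the alternative NF-κB pathway, was 57.7, 53.1 and 52.1, with a centred ratio of 0.01 (−0.12 to 0.13) for curdlan. In RPM these 3 TRAFs stayed within 1.5-fold between lists. By fold enrichment Traf5 did not, with centred log2 ratios of −0.61 for curdlan over NT and 0.86 for FK506 over curdlan.

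Among the receptors of this group Tnfrsf1a, which encodes the death domain receptor TNFR1, was 97.2 RPM in NT, 101 with curdlan and 87.9 with FK506. RANK (Tnfrsf11a) was 49.3, 38.5 and 37.5, with a centred ratio of −0.23 (−0.37 to −0.09) for curdlan. HVEM (Tnfrsf14), a receptor for LIGHT and BTLA, was 26.3, 22.2 and 22.5. GITR (Tnfrsf18) was 11.1, 10.2 and 8.89, and the decoy Tnfrsf23 was 8.88, 7.94 and 7.86. Tnfrsf13b was 105, 79.9 and 76.1, the most negative ratio of the members at −0.26 (−0.36 to −0.17). Its mark did not lie at the first TSS but over TSSs 14.1 kb to 15.9 kb downstream, in a region of 3881 bp in NT and 3876 bp with curdlan. The first TSS of Tnfrsf13b had no peak within 1 kb in any list.

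Shared regions limit some of these values. The region of Fn14 (Tnfrsf12a), the TWEAK receptor, was 95.9, 88.4 and 90.5 RPM. It also lay within 1 kb of TSSs of Hcfc1r1 and Thoc6 in every list, and of Cldn6 in NT and with FK506. At Tnfrsf9 (ENSMUSG00000028965.7, plus strand of chr4:150288671-150320211), which encodes the costimulatory receptor 4-1BB, the summed level of 36.4, 32.8 and 35.4 RPM joined 2 regions that went in different directions. The first covered the start of Park7 as well and held 522, 379 and 457 tags. The second spanned positions 12438 to 15560 downstream of the first TSS with curdlan, over 4 later TSSs of Tnfrsf9 and no TSS of another protein-coding gene, and held 84, 319 and 232 tags. Its levels were 5.04, 15 and 11.9 RPM, lowest in NT. The centred log2 ratio of curdlan over NT was 1.70 (1.35 to 2.06) for the second region and −0.69 (−0.88 to −0.49) for the first. Its length was 1646 bp in NT, 3123 bp with curdlan and 2752 bp with FK506. Counting only peaks with no TSS of another protein-coding gene within 1 kb, a rule chosen after these values were seen, left 14 members. Of these 5 were higher with curdlan by 1.5-fold or more (Tnfrsf1b, Tnfrsf9, Tnfrsf13c, Traf1 and Traf6), and 3.83% of all genes under that rule were.

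Marked regions of the members were longer with curdlan in 12 of 16 cases (75%), and 64.5% of all genes had longer ones. The median difference was 445 bp for the members and 107 bp for all genes. With FK506 added they were shorter in 12 of 16 cases (75%), and 60.8% of all genes had shorter ones. The median difference was −162 bp for the members and −66 bp for all genes. For the 5 members higher with curdlan the region was longer by 1050 bp (Traf6) to 3442 bp (Traf1). Per kb of region Traf1 alone of them was higher by 1.5-fold or more, at 9.50, 14.5 and 16.6 RPM. The longer regions reached mainly into the genes, as the map of the regions shows.

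**Figure D3:**
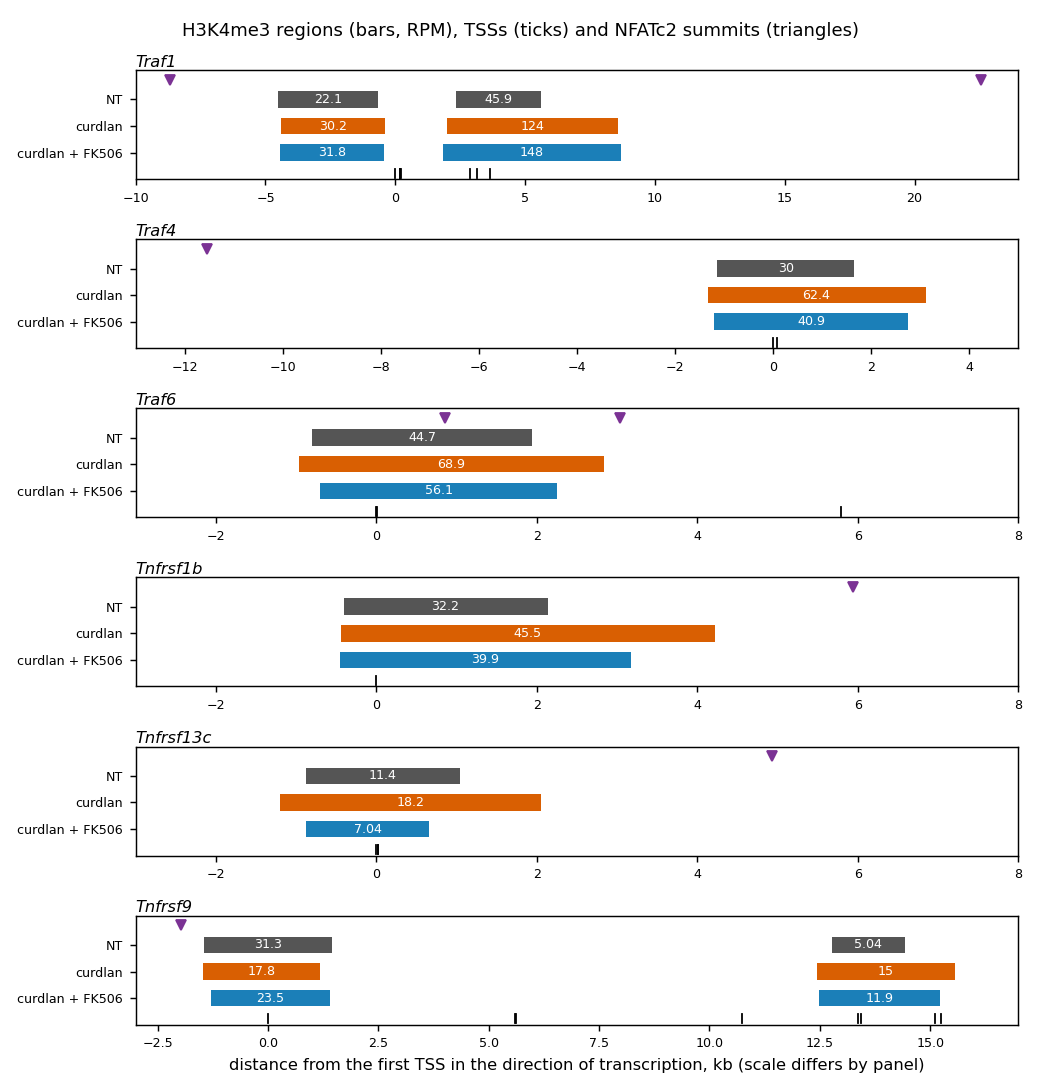
H3K4me3 regions of 6 members as bars with their RPM, in NT (grey), curdlan (orange) and curdlan with FK506 (blue), against the distance in kb from the first TSS in the direction of transcription; black ticks are annotated TSSs, triangles are NFATc2 summits, and the scale differs by panel. The curdlan bars extend further into the gene than the NT bars, and at Tnfrsf9 this holds for the second region and not for the first.

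NFATc2 summits within 20 kb of a TSS were found for 12 of 27 members (44.4%, Wilson 95% interval 27.6 to 62.7), and 24.1% of all protein-coding genes had one. A summit lay inside the gene for 6 of 27 (22.2%, 10.6 to 40.8), and 13.0% of all genes had one. Of the 16 members marked with curdlan 10 had a summit within 20 kb (62.5%), and 37.3% of all marked genes did. All 5 members higher with curdlan by 1.5-fold or more had one, and 60.3% of all genes higher by that fold did. Of the 11 other members marked in both lists 5 had one (45.5%), and 36.3% of all such genes did. The counts are small, and neighbouring members can share a site.

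The members were served by 15 distinct summits of the 9438 in the list. Their peaks held 24 to 170 tags with a median of 54, and the median of all NFATc2 peaks was 63. Of the 15 summits 5 lay inside an H3K4me3 peak of the curdlan list. The strongest peaks were one 17 kb upstream of Tnfrsf13b with 170 tags, one 924 bp downstream of a Tnfrsf1a TSS with 165 tags, and one 11.5 kb upstream of Traf4 with 157 tags. A second Tnfrsf13b site lay 6.52 kb upstream with 60 tags. Thus some of the strongest peaks lay within 20 kb of a TSS of genes whose mark differed little, such as Tnfrsf1a and Tnfrsf13b. At Tnfrsf13b that was the first TSS, which had no H3K4me3 peak within 1 kb, and the mark of the gene lay over later TSSs. The summit of the peak with 170 tags lay inside an H3K4me3 peak of the NT list only.

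For the members higher with curdlan, the sites ranged from inside the marked region to far from it. Traf6 had a summit 845 bp downstream of its TSS with 107 tags, inside the H3K4me3 region of all 3 lists, and a weaker one of 37 tags further inside the gene, 3039 bp from the first TSS. Tnfrsf13c had one 4.91 kb downstream of its TSS, past the end of the gene, with 98 tags. That summit lay inside an H3K4me3 peak of all 3 lists that was not counted for Tnfrsf13c. Tnfrsf1b had one of 31 tags in an intron 5.94 kb from its TSS. Traf1 had none inside the gene but one of 37 tags 8.67 kb upstream and one of 79 tags 18.9 kb downstream of its last TSS. The site upstream of Traf4 lay 414 bp from a TSS of Tlcd1, the nearest gene, and within 1 kb of the first TSSs of Nek8. It too lay inside an H3K4me3 peak of all 3 lists, apart from the region counted for Traf4.

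**Figure D4:**
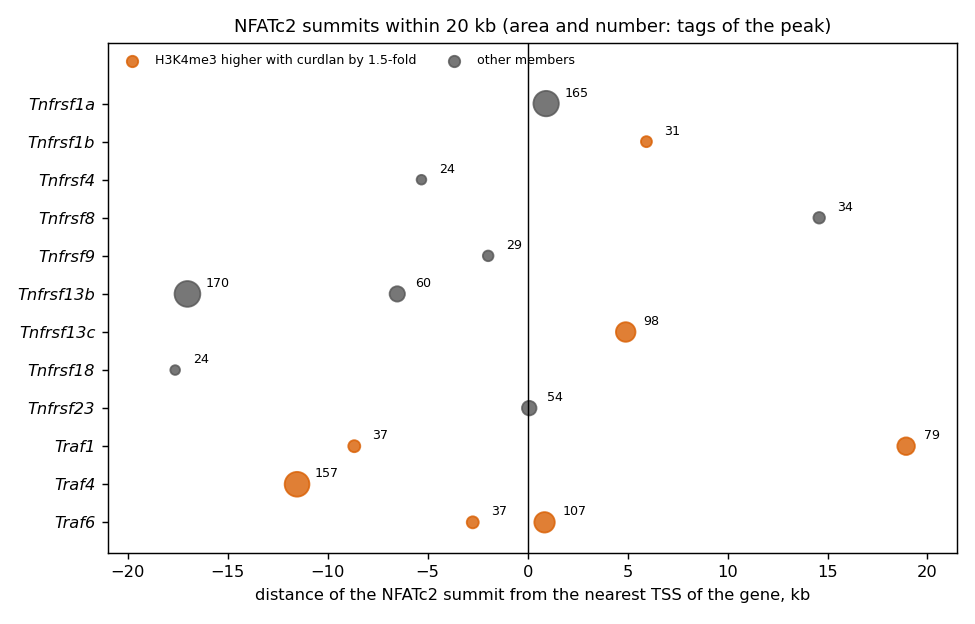
Distance in kb of each NFATc2 summit from the nearest TSS of the member, negative upstream; circle area and the number beside it give the tags of the peak, and orange marks the 5 members whose H3K4me3 was higher with curdlan by 1.5-fold or more. Summits of Tnfrsf1a, Tnfrsf23 and Traf6 lie within 1 kb of a TSS, and the 24-tag summit is drawn for both Tnfrsf4 and Tnfrsf18.

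Other sites were shared or weak. Tnfrsf23 had a summit of 54 tags 79 bp from its TSS, although its H3K4me3 level was among the lowest. Tnfrsf4 and Tnfrsf18 shared a summit of 24 tags that lay 21 bp from the TSS of Sdf4. The summit 1.98 kb upstream of the first Tnfrsf9 TSS held 29 tags and lay in an intron of Park7. The unmarked Tnfrsf8 had a summit of 34 tags in an intron 14.6 kb from its TSS, and Tnfrsf11a had one of 39 tags in an intron 52.2 kb from its TSS. By nearest TSS 8 of the 12 members kept a summit, since those of Tnfrsf4, Tnfrsf9, Tnfrsf18 and Traf4 were nearest to other genes.

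Motifs were searched on both strands within 100 bp of each summit. GGAAAA was present at 10 of the 15 member summits, and at 45.6% of all 9438. TGANTCA was present at 5 of 15, and at 21.8% of all. An NF-κB motif of GGG and CC separated by 5 bases was present at 4 of 15, and at 21.6% of all; it can overlap GGAAAA. At the Traf4 site all 3 motifs occurred, and at the second Tnfrsf13b site TGANTCA occurred 2 times without GGAAAA. The downstream Traf1 site held none of the 3. A match is a description of the letters and does not show which protein was bound.

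Genes of the same pathway outside the family names were read from fixed lists. Of 8 further receptors of the superfamily 5 were marked in every list, and 48.7% to 48.9% of all genes were marked in each list. Of these 5 receptors 3 were higher with curdlan by 1.5-fold or more, and 3.65% of all genes were. Cd40, the receptor for CD40 ligand, was 36.3 RPM in NT and 80.7 with curdlan, a centred log2 ratio of 1.28. Fas, a death receptor, had a ratio of 1.39, and Eda2r one of 1.08, while Relt was lower at −0.60. None of the 5 had an NFATc2 summit within 20 kb, and 37.3% of all genes marked with curdlan did. Of all 8 receptors 1 had one, and 24.1% of all genes did. These counts are small. Of 27 adaptors, kinases, ubiquitin enzymes and inhibitors all were marked. Against 3.65% higher and 1.22% lower of all genes, 3 were higher with curdlan and none lower. These were Tnfaip3 (A20) with a centred ratio of 1.71, the caspase-8 inhibitor Cflar with 1.41, and the A20 partner Tnip1 with 0.66. An NFATc2 summit lay within 20 kb of 13 of the 27, and 37.3% of all genes marked with curdlan had one. Cflar had 3 summits in that window, Tnip1 had 2 and Tnfaip3 had none. With FK506 no gene of either list passed 1.5-fold in either direction in centred RPM. The largest centred RPM ratios with FK506 were −0.26 for Fas and 0.24 for Tnip1. By fold enrichment several genes were higher with FK506 by that fold, among them Rnf31 (1.35) and Cd40 (1.30), and Rbck1 was lower (−0.80). Of all genes 14% were higher and 14.6% lower by that measure. In fold enrichment Cd40 and Cflar had centred ratios of −0.49 and −0.37 for curdlan over NT. Of the genes of these lists higher with curdlan in RPM, Tnip1 alone was also higher by 1.5-fold in fold enrichment (0.66).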

How the data were processed

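H3K4me3 and NFATc2 ChIP-seq peak lists of D1 cells were used. The authors aligned single-end reads with bowtie 1 (genome mm9). MACS then called the peaks of each library against its input (1.4.2 per the file headers, p-value threshold 1e-05, band width 1000 bp for H3K4me3 and 300 bp for NFATc2). The deposited lists give the tag count of each peak, its fold enrichment as a ratio to the local background, a transformed log10 p-value and an FDR in percent. ChIP totals in the headers were the same before and after duplicate filtering. The depths of 14377535 to 21289349 ChIP tags limit the precision of low counts. The Clopper-Pearson intervals of the ratios cover counting error only. The Wilson intervals of the shares treat genes as independent draws and hold neither counting error of tags nor a spread between libraries.

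TSSs were those of all transcripts of protein-coding genes in GENCODE M1 (Ensembl 65) on NCBI build 37. Of 22380 gene records, overlapping records with the same symbol were merged to 22284 genes. Peaks within 1 kb of a TSS were summed per gene, scaled to 1000000 ChIP tags of the header (RPM), and compared as log2 ratios centred on the median of all genes marked in both lists. A gene was called past 1.5-fold (0.585 on the log2 scale). There were no replicates, so no test was made. The functions were tested on simulated data. Intervals came from scipy 1.17.1 and tables from pandas 2.3.3 with numpy 2.4.6 in Python 3.11.15. Sequence was read by pysam 0.24.0 after indexing with samtools 1.23.1.

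Every member was named. Of the pathway lists the genes past 1.5-fold in curdlan over NT and those with the largest ratio with FK506 were named, and of other genes those that share a region with a member or lie nearest to one of its NFATc2 summits. The members and lists were chosen with earlier results of these data known. Of 12 DC and myeloid markers Spi1 was not found under that symbol. Alternatives for the distance, the p-value, the FDR, the TSS set, the scaling, the measure and the windows were tried.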

Additional observations from a re-analysis of the deposited data

How the results depend on the processing

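The number of marked members stayed at 16 or 17 in NT, 15 or 16 with curdlan and 16 with FK506 under every distance, p-value, FDR and TSS set tried. Members higher with curdlan numbered 5, but 2 by fold enrichment (Tnfrsf13c, Traf4; 14.4% of all genes), 1 per kb of region (Traf1; 1.46%) and 2 at a fold of 2 (Traf1, Traf4; 1.29%). Members lower with curdlan numbered 0, but 4 by fold enrichment (Tnfrsf1b, Tnfrsf11a, Tnfrsf23, Traf5; 14.8%) and 1 by the strongest peak alone (Tnfrsf9; 1.66%). With FK506 the lower members numbered 1, but 2 without centring (1.38% of all genes), 3 by fold enrichment (14.6%) and 0 per kb (0.436%). The higher members with FK506 numbered 0, but 2 by fold enrichment (Tnfrsf11a, Traf5; 14%). Of the members past 1.5-fold, the direction reversed for Tnfrsf1b by fold enrichment (−0.88) and per kb (−0.19) and for Traf1 by fold enrichment (−0.42). Some members within 1.5-fold also changed sign, among them Traf5 by fold enrichment (from 0.21 to −0.61) and Tnfrsf1a per kb (from 0.19 to −0.10) for curdlan. For FK506 Tnfrsf1b (from −0.14 to 0.48) and Traf6 (from −0.25 to 0.13) did so by fold enrichment. The cause was not tested. The median marked length was 2792, 3619 and 3474 bp for the strongest peak alone in NT, curdlan and FK506, against 3350, 4100 and 3651 bp. NFATc2 summits served 8 members at a p-value of 1e-10 or less (13.4% of all genes), 9 with a window of 10 kb (16.3%) and 14 with one of 30 kb (30.2%), and 4 had one inside the gene at the stricter p-value. Peaks without another gene's TSS were tried after the data were seen. No paired analysis was possible because each condition had 1 ChIP library, and no replicate could be left out.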
